A study of Mus musculus with 40 samples.

Results

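The genes described here were 7 voltage-gated potassium channel genes linked to epilepsy, *Kcnq3*, *Kcnq5*, *Kcna1*, *Kcna2*, *Kcna4*, *Kcnc1* and *Kcnd2*. They were found by matching the Ensembl identifiers of the 2 count tables to gene symbols, and all 7 were present in both tables among 47643 genes listed. The libraries came from wild-type Swiss Webster mice that, by the study's methods, were germ-free juvenile females fed a control diet. Each mouse cohort received by gavage the stool of 1 of 10 human donors, collected either before (pre-KD) or after (post-KD) the start of a clinical ketogenic diet, and the mice themselves ate no ketogenic diet. Hippocampus and frontal cortex were taken on day 4 after colonization, and each library held RNA pooled from 6 mice of 1 cohort. The design therefore had 40 libraries, 10 for each region and condition, and the same 10 donors recur in all 4 groups. Because a library is a pool and a donor is represented by 1 pool per region and condition, no p-value below measures the spread between mice. Those of post-KD against pre-KD measure the spread between pools of different donors. Those of tests with the cohort as a block measure how the difference between regions varied among cohorts.

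Voltage-gated potassium channels open when a neuron depolarizes and let potassium leave the cell, which repolarizes the membrane and limits further firing. Their pore-forming alpha subunits fall into families that differ in speed, threshold and place on the neuron, and loss of several of them causes epilepsy in humans or seizures in mice. *Kcnq3* and *Kcnq5* encode subunits of the slow M current, *Kcna1* and *Kcna2* encode low-threshold axonal channels, *Kcna4* and *Kcnd2* encode rapidly inactivating A-type channels, and *Kcnc1* encodes a high-threshold channel of fast-spiking neurons.

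Total counts per library ran from 1140756 to 2095352, with a median of 1560670 in hippocampus and 1718002 in frontal cortex. Levels are given as CPM, the counts of a gene relative to all counts of its library, after TMM scaling over all 40 libraries. Pearson's r of each library with the mean of its group was 0.861 at the median, and 2 libraries had the lowest r of their regions, hippocampus pre-KD of donor 5 (r = 0.709, 10223 genes with a count against a group median of 13202) and frontal cortex pre-KD of donor 1 (r = 0.776, 11362 genes against 13875). Transcripts of Y-linked genes summed to over 10 CPM in 9 of the 40 libraries although the methods name female mice, and those were the libraries of donors 9 and 10 in all 4 groups and of donor 2 in hippocampus pre-KD. At an adjusted p under 0.05, genes that mark hippocampus were higher in the hippocampal libraries for 6 of 9 fixed markers. Cortex markers were lower there for 3 of 9 and higher for 1, beside 2.85% of all genes tested passing between regions. Other tissue also differed between the regions: choroid plexus markers summed to medians of 1548 (pre-KD) and 1295 (post-KD) CPM in hippocampus against 47.5 and 137 CPM in frontal cortex, and striatal markers to 122 and 83.7 against 669 and 727 CPM. Comparing conditions within a region, edgeR put no gene of any marker list past an adjusted p of 0.05.

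All 7 channel genes were detected in both regions, and their order by level per exon length was the same in both. *Kcnd2* stood first, at 31.9 ± 7.97 CPM per kb in hippocampus and 35.4 ± 8.55 CPM per kb in frontal cortex (SD, n = 20 each). *Kcna1* followed at 25.4 ± 8.17 and 29.1 ± 6.68 CPM per kb. Next came *Kcnc1* at 17.1 ± 4.20 and 18.1 ± 3.71 CPM per kb. These 3 genes encode channels of dendrites, axons and fast-spiking cells respectively. *Kcna2* reached 14.5 ± 3.40 and 17.3 ± 3.39 CPM per kb, and *Kcnq3* 12.7 ± 3.22 and 13.6 ± 2.53 CPM per kb. *Kcna4* and *Kcnq5* were the lowest, at 5.33 ± 3.66 and 6.64 ± 3.66 CPM per kb for *Kcna4* and 3.03 ± 1.77 and 5.45 ± 1.62 CPM per kb for *Kcnq5*. The ranges of every pair of neighbours in this order overlapped in both regions. Within a library, *Kcna1* exceeded *Kcnc1* in 18 of 20 libraries of each region, while *Kcnc1* exceeded *Kcna2* in 13 of 20 hippocampal and 11 of 20 cortical libraries. Division by exon length assumes reads along the whole transcript. The labels name a TruSeq kit while the study's materials also list a kit that reads transcript ends, so the order between genes holds only if the former was used.

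**Figure D1:**
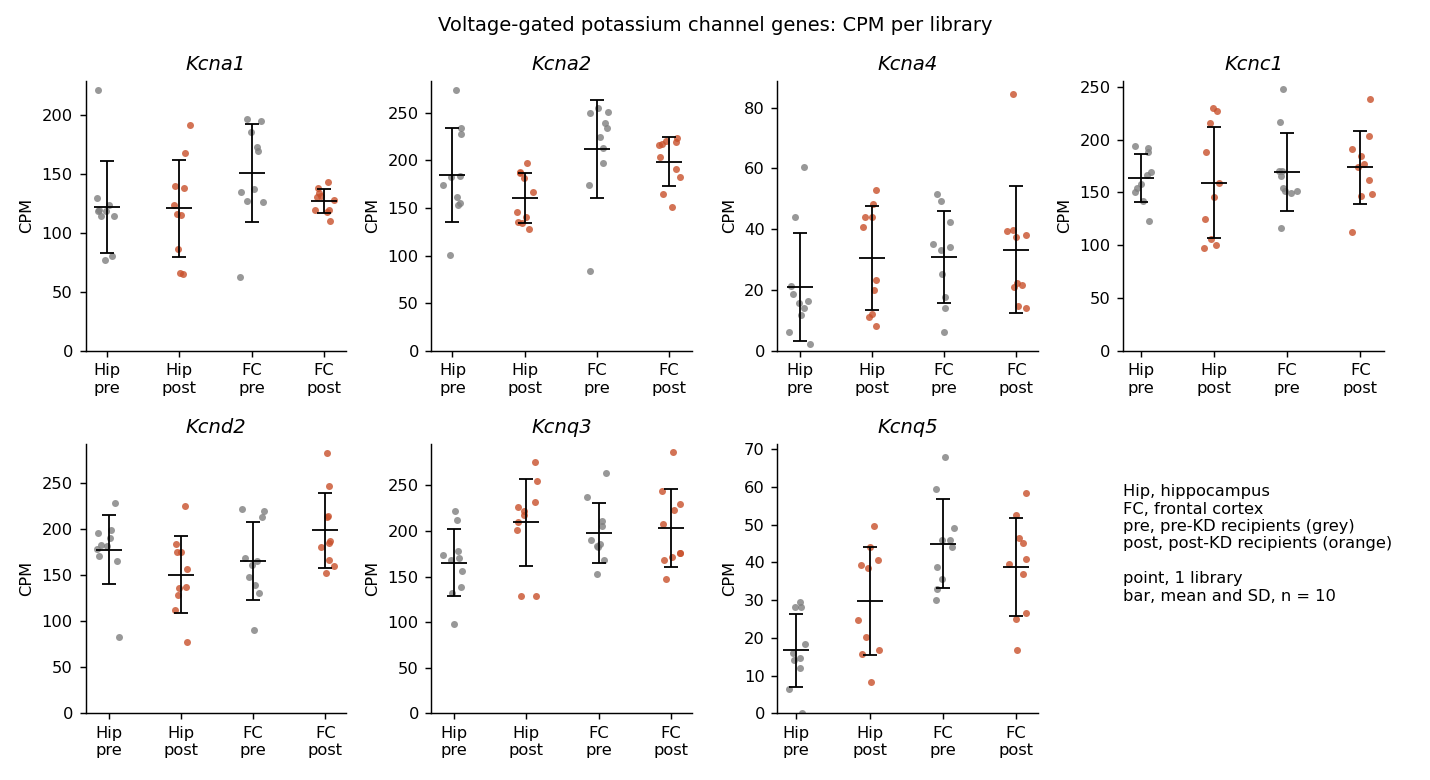
CPM per library for each of the 7 channel genes (y axis, from 0), by region and condition (x axis: hippocampus and frontal cortex, pre-KD in grey and post-KD in orange). Points are libraries and bars give mean and SD over 10 libraries; pre-KD and post-KD points overlap in each panel and region, *Kcnq5* sits lower in hippocampus, and *Kcna1* spreads least in frontal cortex post-KD (109.9 to 143 CPM).

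Spread between pools, which holds biological and counting variation, differed among the genes. The expected coefficient of variation from counting alone was 5.34% to 7.54% for the 5 abundant genes in the 4 groups, and the observed one was 8.15% to 34.0%. *Kcnq5* and *Kcna4* had fewer counts, with a counting expectation of 11.8% to 19.1%, and varied by 26.3% to 84.5%. The observed and expected values came closest for *Kcna1* in frontal cortex post-KD, at 8.15% against 6.73%. The 95% intervals of the change post-KD were wider for *Kcnq5* and *Kcna4* than for the other 5 genes in both regions.

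The comparison of post-KD with pre-KD recipients asked whether the transferred microbiota altered these transcripts. In hippocampus none of the 7 genes passed an adjusted p of 0.05 by edgeR's quasi-likelihood test, against 0.00570% of 17529 genes tested. None passed an unadjusted p of 0.05 either, against 10.1% of all genes and 2.97% of the 5623 genes averaging 40 counts or more, to which all 7 belong. DESeq2 also called 0 of the 7 by adjusted p, and gave an unadjusted p under 0.05 to 1 of them, *Kcnq3*. The point estimates were higher post-KD for 3 genes and lower for 4, with a median log2 fold change of -0.01 over the 7 and -0.01 over all genes. In these bulk tissues, fewer cells of a type and less RNA per cell cannot be told apart.

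*Kcnq3*, a subunit of the M channel of forebrain neurons (chr15:65986387-66286642, minus strand, GRCm38, the build the files name mm10), had the smallest p of the 7 in hippocampus. Its level was 98.0, 169 and 222 CPM pre-KD (lowest, median, highest of 10) and 128, 219.6 and 275 CPM post-KD. The groups overlapped, and 8 of 10 donors had the higher value post-KD. The log2 fold change was 0.34 (SE 0.18, 95% interval -0.01 to 0.68), with p = 0.0584 and adjusted p = 0.544. The unadjusted p was 0.0348 in DESeq2, 0.0438 in DESeq2 with a donor block, 0.0488 with RLE scaling and 0.0389 with a stricter count filter, but 0.0643 with no count filter, 0.0648 with a Y-linked covariate and 0.0818 with a donor block in edgeR, and it lay between 0.0212 and 0.223 when each donor was left out in turn. The value rose most for donor 2, from 98.0 to 275 CPM, and without that donor the log2 fold change was 0.23. In frontal cortex *Kcnq3* ranged from 153 to 264 CPM pre-KD and from 147 to 286 CPM post-KD, with medians of 188 and 192 CPM. The log2 change there was 0.03 (interval -0.23 to 0.29, adjusted p = 0.998), and 4 of 10 donors were higher post-KD.

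*Kcnq5* encodes a further M-current subunit (chr1:21398403-21961942, minus strand). The gene body, introns included, overlaps 3 same-strand entries. These were *Gm36949*, *Gm7658* and *Gm38243*, with 264, 85 and 36 counts over the 40 libraries beside 2108 for *Kcnq5*. Whether reads were lost from *Kcnq5* through this overlap was not tested. In hippocampus its level was 0, 15.3 and 29.5 CPM pre-KD and 8.34, 31.6 and 49.7 CPM post-KD. The library at 0 was that of donor 5, where a count of 0 allows up to 2.18 CPM (3 counts, counting error only). The log2 fold change of 0.82 was the largest of the 7, but its interval ran from -0.22 to 1.86 (p = 0.123, adjusted p = 0.790) and 7 of 10 donors were higher post-KD. Without donor 5 the log2 fold change was 0.62 (adjusted p = 0.947). In the plot of donors, 5 post-KD pools lay above every pre-KD pool and 5 lay among them. In frontal cortex *Kcnq5* went the other way in the point estimate, from 29.9, 44.9 and 68.0 CPM pre-KD to 16.7, 40.2 and 58.2 CPM post-KD (log2 fold change -0.21, interval -0.72 to 0.30, adjusted p = 0.977), with 2 of 10 donors higher. It was -0.34, -0.33 and -0.11 without donors 3, 4 and 8.

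*Kcna1* encodes the axonal channel whose loss gives mice spontaneous seizures, and its gene lies at chr6:126640397-126646384 on the minus strand. Its hippocampal level was 77.3, 119 and 221 CPM pre-KD and 65.5, 119.8 and 192 CPM post-KD. The groups had nearly the same median, with a log2 fold change of -0.01 (interval -0.43 to 0.40, adjusted p = 0.9998), and 0.056 without donor 5, whose pre-KD pool was the one at 221 CPM. In frontal cortex the level was 62.4, 154 and 197 CPM pre-KD and 109.9, 129 and 143 CPM post-KD, lower post-KD for 8 of 10 donors in the point estimate of -0.25 (interval -0.55 to 0.05, p = 0.102, adjusted p = 0.714). The lowest pre-KD pool there was the donor 1 library, and without donor 1 the log2 fold change was -0.35 (p = 0.0187, adjusted p = 0.307). The SD of *Kcna1* in frontal cortex was 41.6 CPM pre-KD and 10.4 CPM post-KD, and this difference in spread was not tested.

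*Kcna2* encodes the partner subunit of the same axonal channels (chr3:107101146-107115005, plus strand). Its hippocampal level was 100.3, 178 and 274 CPM pre-KD and 128, 156 and 198 CPM post-KD, with a log2 fold change of -0.21 (interval -0.57 to 0.14, adjusted p = 0.966), or -0.11 and -0.14 without donors 2 and 7. In frontal cortex it was 84.3, 229 and 255 CPM pre-KD and 151, 209.8 and 223 CPM post-KD, with a log2 fold change of -0.10 (interval -0.37 to 0.17, adjusted p = 0.985). The pre-KD and post-KD pools overlapped in both regions, and the 84.3 CPM pool was again frontal cortex pre-KD of donor 1. Without donor 1 the log2 fold change in frontal cortex was -0.15 (adjusted p = 0.908), and it was -0.07 and -0.04 without donors 4 and 9 and -0.06 with a donor block.

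*Kcna4*, an inactivating member of the same family (chr2:107290639-107298502, plus strand), was the most variable. In hippocampus it lay at 2.18, 15.996 and 60.6 CPM pre-KD and at 8.20, 31.9 and 52.8 CPM post-KD. The log2 fold change was 0.52 with an interval from -0.46 to 1.49 (adjusted p = 0.997), and 8 of 10 donors were higher post-KD. It was 0.81 with a donor block (adjusted p = 1), 0.96 without donor 6 (adjusted p = 0.640), 0.81 without donor 2 and 0.36 without donor 10. In frontal cortex it lay at 6.24, 33.6 and 51.5 CPM pre-KD and at 14.1, 30.0 and 84.7 CPM post-KD, with a log2 fold change of 0.10 (interval -0.55 to 0.75, adjusted p = 0.998). The point estimate in frontal cortex turned to -0.11 without donor 3, whose post-KD pool was the one at 84.7 CPM.

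*Kcnc1* encodes the rapidly closing channel that lets interneurons fire at high rates (chr7:46396497-46438704, plus strand). Its hippocampal level was 123, 162 and 194 CPM pre-KD and 97.6, 152 and 229.6 CPM post-KD, and its cortical level was 116, 159.98 and 248 CPM pre-KD and 113, 175 and 239 CPM post-KD. The groups overlapped throughout. The log2 fold changes were -0.05 in hippocampus (interval -0.41 to 0.32, adjusted p = 0.9998) and 0.03 in frontal cortex (interval -0.25 to 0.31, adjusted p = 0.998). Fixed markers of inhibitory interneurons did not pass the test either, with 0 of 7 called in each region.

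*Kcnd2* carries the dendritic A-type current (chr6:21215503-21729805, plus strand). In hippocampus it lay at 82.9, 183 and 228 CPM pre-KD and at 78.0, 147 and 226 CPM post-KD, lower post-KD for 8 of 10 donors. In frontal cortex it lay at 90.5, 163 and 222 CPM pre-KD and at 152, 186 and 283 CPM post-KD, higher post-KD for 7 of 10 donors. The groups overlapped in both regions. The log2 fold change was -0.24 in hippocampus (interval -0.61 to 0.13, p = 0.194, adjusted p = 0.925) and 0.26 in frontal cortex (interval -0.03 to 0.54, p = 0.0748, adjusted p = 0.624). The lowest pre-KD values were those of donor 5 in hippocampus and donor 1 in frontal cortex, and without them the log2 fold changes were -0.31 (adjusted p = 0.704) and 0.17 (adjusted p = 0.908). The unadjusted p in frontal cortex was 0.0470 and 0.0295 without donors 4 and 7, and 0.0434 in DESeq2 with a donor block (adjusted p = 0.620). The gene body of *Kcnd2*, introns included, overlaps *Gm42583*, a provisional transcript on the same strand with 3787 counts over the 40 libraries. Whether reads were lost from *Kcnd2* through this overlap was not tested. A further 2 same-strand entries there had 354 and 273 counts.

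In frontal cortex none of the 7 genes passed the adjusted threshold, against 0.00560% of 17873 genes. None passed an unadjusted p of 0.05, against 9.68% of all genes and 5.58% of genes averaging 40 counts or more. DESeq2 likewise called none of the 7 by adjusted p and gave none an unadjusted p under 0.05, except *Kcnd2* when a donor block was added. Point estimates were higher post-KD for 4 genes and lower for 3, with a median log2 fold change of 0.03 over the 7 and 0.01 over all genes.

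**Figure D2:**
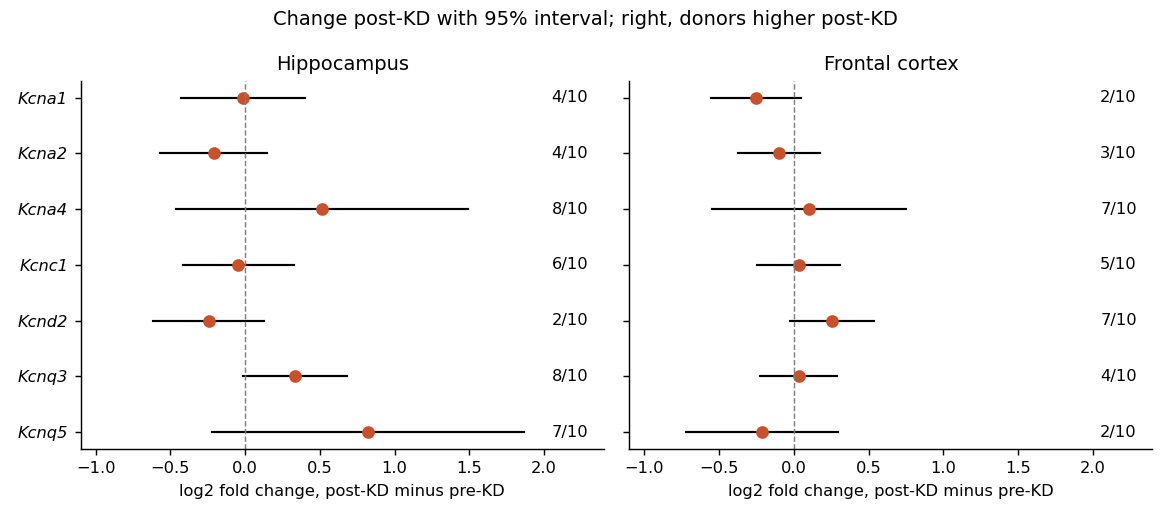
Log2 fold change of post-KD over pre-KD (x axis) for each channel gene (y axis) in hippocampus (left) and frontal cortex (right), by edgeR with 95% intervals over 10 pools a group. All 14 intervals include 0, and the numbers at the right give how many of 10 donors were higher post-KD.

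An interaction term fitted to all 40 libraries, with the cohort as a block, asked whether the response to post-KD stool was unequal in the 2 regions. None of the 7 passed the adjusted threshold, against 0.0154% of 19422 genes, and 1 had an unadjusted p under 0.05, against 2.22% of all genes and 3.45% of those averaging 40 counts or more. That gene was *Kcnd2*, for which hippocampus minus frontal cortex in the change was -0.53 on the log2 scale (interval -1.0 to -0.06, p = 0.0279, adjusted p = 1). The unadjusted p of *Kcnd2* rose to 0.142, 0.0846 and 0.0533 without donors 1, 8 and 9, and stayed under 0.05 without each of the others. The opposite point estimates of *Kcnd2* in the 2 regions therefore did not pass correction over all genes. *Kcnq5* showed the widest contrast, 1.13 (interval -0.05 to 2.32, p = 0.0614, adjusted p = 1). DESeq2 also called 0 of the 7 by adjusted p, and gave unadjusted p under 0.05 to 2 of them, *Kcnd2* (p = 0.0094) and *Kcnq5* (p = 0.0259). The unadjusted p of *Kcnq5* was 0.0487 without the cohort block, and 0.0335, 0.0283 and 0.0487 without donors 1, 4 and 6. It was 0.200 without donor 5 (contrast 0.79), 0.159 without donor 2 (0.92) and 0.125 without donor 10 (0.999). For *Kcnq3* the contrast was 0.32, or 0.17 without donor 2. For *Kcna4* it was 0.63, and 1.01, 1.104, 0.35, 0.34 and 0.22 without donors 2, 6, 7, 9 and 10. The remaining values lay between -0.13 and 0.17, all with adjusted p = 1, and moved with single donors. *Kcna1* (0.17) was 0.0043 without donor 6 and 0.31 without donor 1, *Kcna2* (-0.12) was -0.06 without donor 2 and -0.20 without donor 6, and *Kcnc1* (-0.13) was -0.03 without donor 6 and -0.21 without donor 9.

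**Figure D3:**
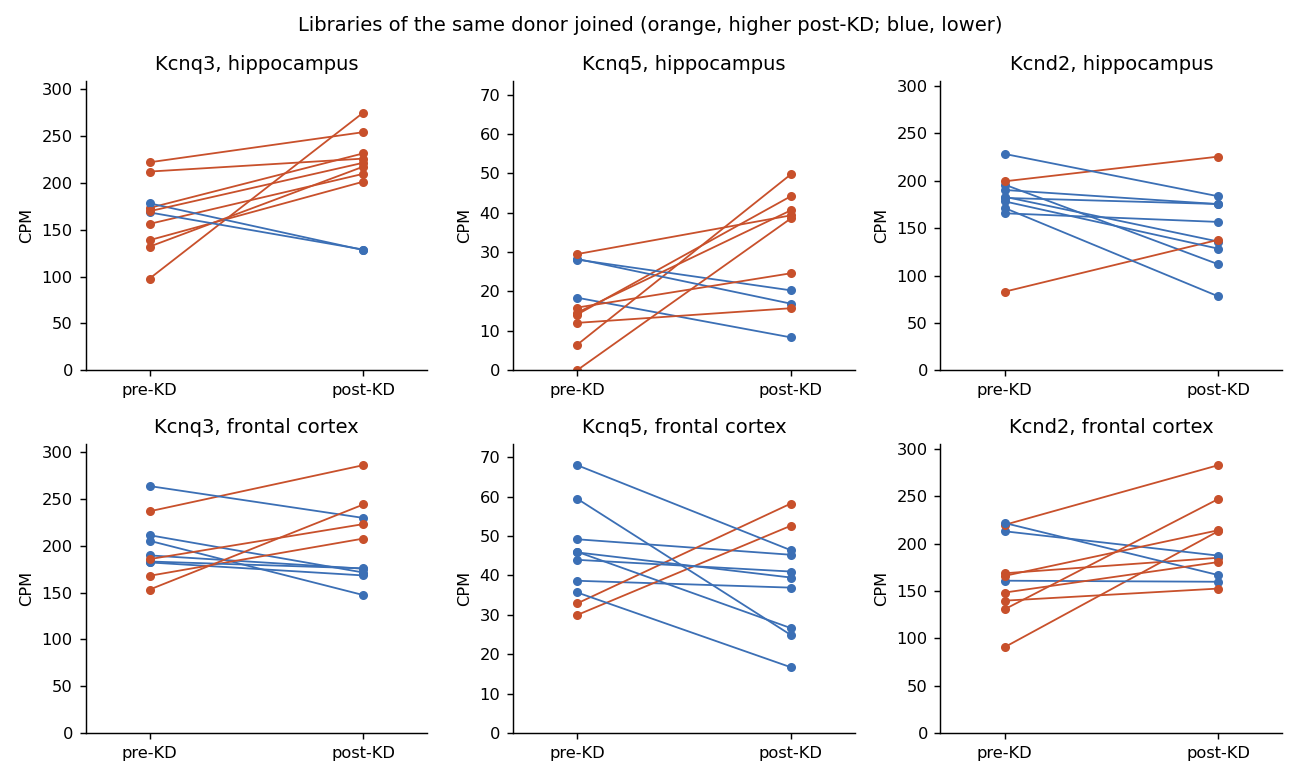
CPM pre-KD and post-KD (y axis, from 0) of *Kcnq3*, *Kcnq5* and *Kcnd2* in hippocampus (top) and frontal cortex (bottom), with the 2 pools of each donor joined by a line. Orange lines rise and blue lines fall; *Kcnq3* rises for 8 of 10 donors in hippocampus and 4 of 10 in frontal cortex, and *Kcnd2* for 2 and 7.

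Hippocampus and frontal cortex of the same cohorts were compared to place the genes by region. One of the 7 passed the adjusted threshold, against 2.85% of 19422 genes, and 2 had an unadjusted p under 0.05, against 10.9% of all genes and 20.9% of those averaging 40 counts or more. The share of 7 is thus near the share of all well-counted genes for the unadjusted call. All 7 point estimates were lower in hippocampus, with a median log2 fold change of -0.23, and so was the median over all genes, -0.17. The median over all genes was -0.016 in DESeq2 and -0.013 without the cohort block, while that of the 7, all still lower, was -0.19 and -0.20. The regions come from separate tables, so region and table cannot be told apart.

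*Kcnq5* was the gene called. It averaged 23.3 ± 13.6 CPM in hippocampus and 41.9 ± 12.5 CPM in frontal cortex (SD, n = 20 each), and was lower in hippocampus in 16 of 20 cohorts. The ranges overlapped, from 0 to 49.7 CPM and from 16.7 to 68.0 CPM. The log2 fold change was -1.01 (SE 0.30, interval -1.61 to -0.41, adjusted p = 0.0360), a 2.01-fold lower level. The call was lost without donor 1, 2, 3, 4, 5, 7 or 9, with adjusted p up to 0.125, while the log2 fold change stayed between -1.12 and -0.89. Within pre-KD cohorts alone it was -1.59 (adjusted p = 0.0392) and within post-KD cohorts alone -0.46 (adjusted p = 0.872). The difference between those values is the contrast of 1.13 given above, which did not pass the test.

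*Kcna2* had an unadjusted p of 0.0260 (adjusted p = 0.346), at 173 ± 40.5 CPM in hippocampus and 206 ± 40.3 CPM in frontal cortex (log2 fold change -0.26). Its adjusted p was 0.0984 without donor 1, whose frontal cortex pre-KD pool was low, while the unadjusted p was 0.0661 without donor 3, 0.135 without donor 10 (log2 fold change -0.18) and 0.0522 with RLE scaling. *Kcna4* had the next largest point estimate, -0.47, with an interval from -1.16 to 0.21, and it was -0.74 without donor 1, -0.30 without donor 3, -0.22 without donor 5 and -0.31 without the cohort block. The others lay between -0.23 and -0.10, with adjusted p from 0.601 to 0.843. On leaving out donors, *Kcnq3* (-0.12) was -0.06 without donor 7, *Kcnc1* (-0.10) was -0.03 without donor 3 and -0.15 without donor 5, and *Kcna1* (-0.23) had an unadjusted p of 0.0337 and 0.0430 without donors 1 and 5. Within pre-KD and post-KD cohorts alone, *Kcnd2* was 0.10 and -0.43 (post-KD p = 0.00867, adjusted p = 0.267), and *Kcnq3* was -0.28 and 0.04. The values were -0.80 and -0.17 for *Kcna4*, -0.31 and -0.15 for *Kcna1*, -0.20 and -0.32 for *Kcna2*, and -0.03 and -0.17 for *Kcnc1*. Choroid plexus and striatal markers moved with region, as given above. So did 2 of 7 inhibitory interneuron markers, both lower in hippocampus (*Gad1* -0.49 and *Gad2* -0.50, adjusted p = 0.0178 and 0.0121). Of 7 pan-neuronal markers 2 were lower (*Rbfox3* -0.34 and *Eno2* -0.31), and of 5 excitatory neuron markers 2 were higher (*Neurod2* 0.91 and *Neurod6* 1.09) and 1 was lower (*Nrgn* -0.44). Over all genes, 2.85% passed between regions, and the median log2 fold change was -0.17. The SE of *Nrgn* in this fit was 0.03, at 6100.2 ± 1210 CPM in hippocampus and 8276 ± 1474 CPM in frontal cortex (SD, n = 20 each), and the fit may understate the error of such abundant genes. The part of these markers in the channel values was not tested.

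**Figure D4:**
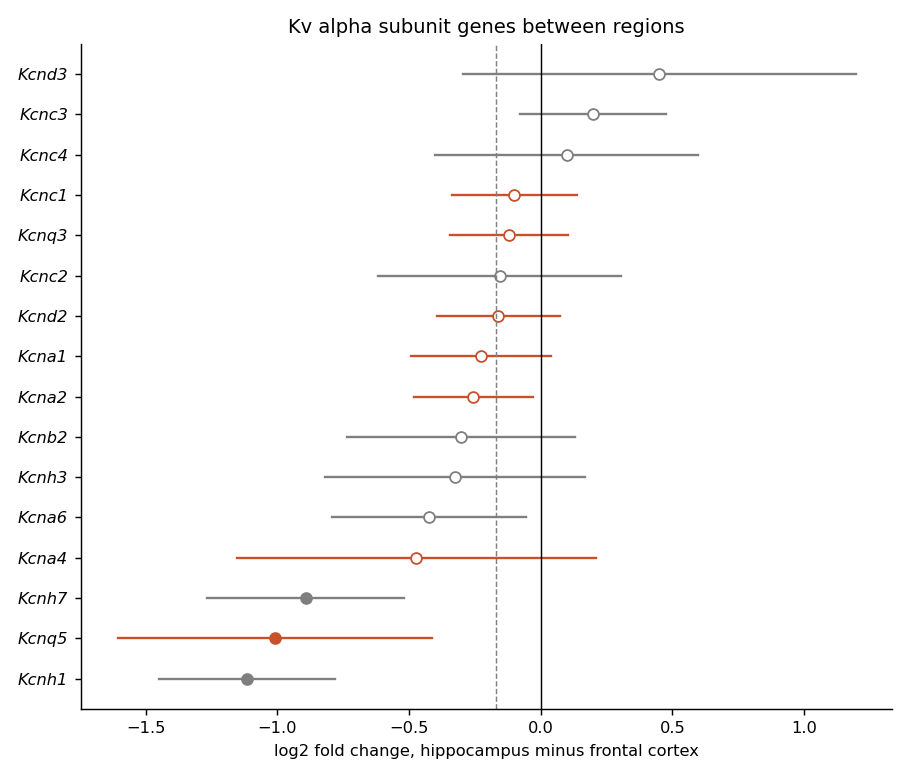
Log2 fold change of hippocampus over frontal cortex (x axis) with 95% intervals for the 7 channel genes (orange) and 9 other alpha subunit genes averaging at least 10 CPM (grey), by edgeR with cohort as a block. Filled points passed an adjusted p of 0.05 (3 of 16 genes: *Kcnh1*, *Kcnq5* and *Kcnh7*), and the dashed line is the median over all genes, -0.17.

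The other genes of the potassium channel system were taken from 5 lists. Of 19 other alpha subunit genes tested between regions, 2 passed, both lower in hippocampus, against 2.85% of all genes, with a list median of -0.33 against -0.17 over all genes. They were *Kcnh1*, an ether-a-go-go channel (-1.12, 59.9 against 117 CPM, adjusted p = 1.3e-08) and *Kcnh7* (-0.89, 56.7 against 95.5 CPM, adjusted p = 0.00028). *Kcnh7* was not called by DESeq2, nor within post-KD cohorts alone (-0.42). *Kcnd1*, *Kcnh5* and *Kcnh4*, next by p, averaged under 10 CPM and had adjusted p from 0.252 to 0.336. Of 8 silent subunit genes, which modify other alpha subunits, 1 passed, beside 2.85% of all genes. It was *Kcnv1*, lower in hippocampus (-1.08, 39.1 against 78.5 CPM, adjusted p = 4.0e-05). The list median was -0.94 (-0.17 over all genes), and *Kcns1*, *Kcns2*, *Kcns3*, *Kcng2* and *Kcng4* averaged under 10 CPM.

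Of 13 auxiliary subunit genes, 1 was higher and 3 were lower in hippocampus, beside 2.85% of all genes called, with a list median of -0.39 (-0.17 over all genes). *Kcnab3* and *Kcnab2* encode beta subunits that bind the *Kcna* channels. *Kcnab3* fell by 1.25 on the log2 scale in hippocampus (24.2 against 50.6 CPM), while *Kcnab2* was 0.34 higher (263 against 208 CPM, adjusted p = 0.0413). The call of *Kcnab2* was lost with no count filter and without donor 1, 2, 3, 4, 5, 8 or 10. *Kcnip1* and *Kcnip2* encode calcium-binding partners of the *Kcnd* channels, and were lower by -1.65 (17.4 against 33.6 CPM) and -0.39 (288 against 369 CPM). *Kcnip1* was -0.94 and not called without the cohort block, and *Kcnip2* was not called without donor 7 or 8.

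Of 12 genes for anchoring and clustering proteins, 1 was higher and 2 were lower, beside 2.85% of all genes called, and the list median of -0.16 was near that of all genes, -0.17. *Lgi1*, a secreted epilepsy protein associated with *Kcna1* channels, was higher in hippocampus (0.45, 182 against 135 CPM, adjusted p = 0.0170). *Cntn2* and *Cntnap2*, which hold *Kcna1* and *Kcna2* channels beside the nodes of Ranvier, were lower (-0.61 and -0.49, adjusted p = 0.00700 and 0.0398). *Cntnap2* lost its call with RLE scaling and with no count filter, and without donor 3, 4, 5, 8, 9 or 10, while *Cntn2* lost it without donor 5 and *Lgi1* without donor 3 or 8. Of 27 other potassium channel genes, 1 was higher and 2 were lower, beside 2.85% of all genes called. The list median was -0.30, against -0.17 over all genes. *Kcnj4*, an inward rectifier (-0.97), and *Kcnt1*, a sodium-activated epilepsy channel (-1.36), were lower. *Kcnt1* was not called without donor 4 or 9, nor within pre-KD cohorts alone (-0.74). *Kcnj13*, a channel of choroid plexus, was higher (4.29, 14.2 against 1.23 CPM). The choroid plexus markers above moved the same way as *Kcnj13*. Of all genes called in the 5 lists, *Kcnh1* and *Kcnj4* were the only ones also called within pre-KD cohorts alone and within post-KD cohorts alone.

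Post-KD against pre-KD, no gene of these 5 lists passed the adjusted threshold in either region. With no count filter, 4 passed in hippocampus, *Kcna5*, *Kcne4* and *Kcng4* (adjusted p = 0.0449 each) and *Kcnh6* (adjusted p = 0.0474). In that setting 1291 of all 20964 genes tested passed. All 4 averaged under 1 CPM in hippocampus and were listed at 0 in every pool of 1 condition. In hippocampus, unadjusted p under 0.05 was reached by 5 of 19 other alpha subunit genes, 1 of 8 silent, 1 of 13 auxiliary, 0 of 12 anchoring and 2 of 26 other channel genes. In frontal cortex the numbers were 2 of 18, 1 of 8, 1 of 12, 1 of 12 and 1 of 26. These counts stand beside 10.1% of all genes in hippocampus and 9.68% in frontal cortex, or 2.97% and 5.58% of genes averaging 40 counts or more. Of the 15 genes with the smallest p in hippocampus, 3 from each list, 7 averaged under 10 CPM, and in frontal cortex 6 of 15 did. Among those above 10 CPM, *Kcnb2*, a delayed rectifier, had the smallest p in hippocampus (38.0 ± 12.1 CPM pre-KD, 64.3 ± 38.6 CPM post-KD, adjusted p = 0.309), and *Kcnh7* in frontal cortex (112 ± 37.3 and 79.1 ± 30.3 CPM, adjusted p = 0.262). *Kcnma1*, the large-conductance calcium-activated channel, lay at 243 ± 51.8 and 303 ± 55.3 CPM in hippocampus (adjusted p = 0.478).

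Whether the channel genes varied together between pools was examined over 20 libraries per region with condition means removed, as 42 pairs in all. No pair passed a Benjamini-Hochberg adjusted p of 0.05 in a two-sided permutation test with 100000 resamples, and 8 had an unadjusted p under 0.05, 6 of them in frontal cortex. The highest was *Kcna1* with *Kcna4* in frontal cortex (r = 0.70, p = 0.0012, adjusted p = 0.0504; rho = 0.52, p = 0.0228, adjusted p = 0.319), and r was 0.48 without the 2 libraries farthest from the median of *Kcna1*. This pair passed with RLE scaling (r = 0.70, adjusted p = 0.0399) and without donor 8 (r = 0.73, adjusted p = 0.0328). Among the 8, *Kcnq5* with *Kcna1* in hippocampus was negative (r = -0.57, p = 0.0114). So were *Kcnq5* with *Kcnd2* (r = -0.53, p = 0.0125) and *Kcnq3* with *Kcnq5* (r = -0.50, p = 0.0367) in frontal cortex. The last had r = 0.32 in hippocampus. Positive ones included *Kcnq5* with *Kcnd2* in hippocampus (0.55), and *Kcna2* with *Kcna4* (0.65) and *Kcnd2* (0.53) in frontal cortex. The pre-KD pool of donor 1 was the lowest of its group in frontal cortex for *Kcna1*, *Kcna2* and *Kcna4*. With both cortical pools of donor 1 left out, r was 0.55 for *Kcna1* with *Kcna4*, 0.23 for *Kcna2* with *Kcna4* (0.65 with that donor) and -0.20 for *Kcna1* with *Kcna2* (0.66 with that donor). *Kcnq3* and *Kcnd2* in frontal cortex moved the other way on leaving out donor 1. Their r was 0.52 over all 20 libraries (p = 0.0165, adjusted p = 0.138; rho = 0.54, p = 0.0167, adjusted p = 0.319), 0.30 without the 2 libraries farthest in *Kcnq3*, and 0.82 without donor 1 (adjusted p = 0.00378).

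**Figure D5:**
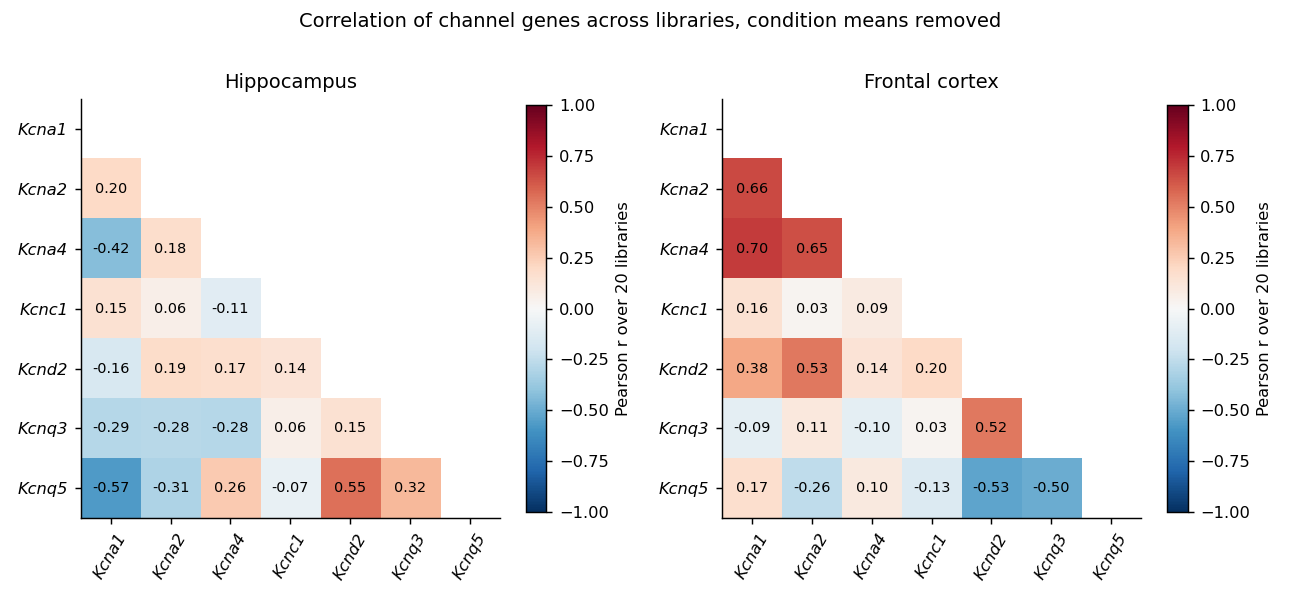
Pearson's r for each pair of channel genes over 20 libraries in hippocampus (left) and frontal cortex (right), on log2 CPM with condition means removed; the colour scale runs from -1 (blue) to 1 (red). The 3 *Kcna* pairs are red in frontal cortex (0.65 to 0.70) and range from -0.42 to 0.20 in hippocampus.

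The genes whose levels were most like each channel gene were listed over all 40 libraries, after removing the means of the 4 groups, among 8156 genes averaging at least 20 counts. These values are descriptions, since all genes of a library share its depth and composition. *Kcnq5* had the highest values, with *Firre* (r = 0.76), *Adcy9* (0.73) and *Tesc* (0.72), which fell to 0.54, 0.44 and 0.46 without the 2 libraries farthest in *Kcnq5*. *Kcna4* was nearest to *Scai* (0.71), *Zfand3* (0.67) and *Pknox1* (0.66), and *Kcnd2* to *Chrm3* (0.70), *Ciz1* (0.68) and *Zfp74* (0.67). *Kcna1* was nearest to *Cmtr1* (0.70), *Zfp706* (0.65) and *Dtx3* (0.65), and *Kcna2* to *Abcg4* (0.68), *Lrrc7* (0.64) and *Cycs* (0.63), which fell to 0.40, 0.31 and 0.40 without the 2 libraries farthest in *Kcna2*. For the other 5 genes the values left in this way lay between 0.42 and 0.60. *Kcnc1* was nearest to *Lrrfip1* (0.64), *Acaa2* (0.57) and *Fbxo2* (0.56), and *Kcnq3* to *Zmynd11* (0.57), *Tns3* (0.53) and *Ppp3ca* (0.52). None of the 7 channel genes was among the 3 nearest genes of another.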

How the data were processed

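RNA was sequenced from 20 hippocampus and 20 frontal cortex pools, 10 pre-KD and 10 post-KD each. The values deposited by the authors are raw counts per gene, 1 table a region. The submitters' notes and the study's methods name FastQC 0.11.5, STAR 2.5.2a on mm10, SAMtools 1.3 and HTSeq 0.6.0; annotation release, strand setting and counting mode are not given in the sources used here. The labels name a TruSeq kit, and the materials list also names QuantSeq. Identifiers were matched to GENCODE M21 on GRCm38 (47224 of 47643; positions and exon lengths from it).

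The main test was edgeR 4.0.16 (R 4.3.3), quasi-likelihood, TMM, genes with at least 10 counts summed, Benjamini-Hochberg over all genes tested, two-sided. Post-KD was compared with pre-KD within each region without a donor term (the methods name DESeq2 and no design formula). Region and the region-by-condition term used all 40 libraries with cohort (20 levels) as a block. DESeq2 1.42.0, RLE, other filters, removal of *Gm42418* (8.63% to 18.0% of counts), a Y-linked covariate, a donor block and leaving out each donor were alternatives. On simulated counts, unchanged genes with few counts passed the unadjusted threshold too often in the fits of 1 region, and those averaging 40 counts or more did not; shares called are therefore given for both sets.

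Same-numbered pools share a human donor: the correlation of their deviations across genes was -0.0280 to 0.0299 in hippocampus and -0.0564 to 0.0317 in frontal cortex, with 0 of 10 pairs above 0.1 in each. No libraries were identical. The channel genes and lists were chosen with earlier results of these data known. Some channel genes are not reported here and are in none of the lists. Named beside them were, per list, the 3 genes of smallest p in each post-KD comparison and the 6 of smallest p between regions (values are given where a result turns on them), and the 3 genes of highest r with each channel gene. Intervals on counts cover counting error only.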

Additional observations from a re-analysis of the deposited data

Results flagged for a closer look

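A gap test (Dixon, critical value 0.466 for 10 libraries) was applied to each channel gene in each of the 4 groups, 28 groups in all, and 5 values stood apart from the other 9 of their group, where chance alone gives about 1 in 20 groups. In hippocampus pre-KD, the donor 5 pool was high for *Kcna1* (221 CPM, nearest value 129 CPM) and low for *Kcnd2* (82.9 CPM, nearest 166 CPM). In frontal cortex pre-KD, the donor 1 pool was low for *Kcna1* (62.4 CPM, nearest 126 CPM) and *Kcna2* (84.3 CPM, nearest 175 CPM). In frontal cortex post-KD, the donor 3 pool was high for *Kcna4* (84.7 CPM, nearest 39.6 CPM). The first 4 values come from the 2 libraries that correlated least with their group within their region, and the report gives the change of each of these genes post-KD without that donor. In the same hippocampal pool *Kcnq5* was at 0 and *Kcna4* at 2.18 CPM, the lowest of 10 for both. In the cortical pool *Kcna4* (6.24 CPM) and *Kcnd2* (90.5 CPM) were the lowest of 10. What set these pools apart was not tested.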

How the results depend on the processing

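No channel gene passed the adjusted threshold post-KD against pre-KD in either region, or in the region contrast of that change, under any alternative run, including the replicate block (donor as a term), under which *Kcnq3* in hippocampus had a log2 fold change of 0.33 (adjusted p = 1); the block changed no call of these genes. Signs turned for values near 0: *Kcna1* in hippocampus was 0.00037 with filterByExpr and -0.16 to 0.061 on leaving out donors, *Kcnc1* there -0.15 to 0.044, and in frontal cortex *Kcnq3* -0.037 to 0.081, *Kcna4* -0.11 to 0.26 and *Kcnc1* -0.052 to 0.096. Between regions, 0 to 1 of the 7 was called on leaving out donors and 0 within post-KD cohorts alone, an alternative chosen after seeing the data, where *Kcnq5* was -0.46 and *Kcnq3* 0.037; within pre-KD cohorts *Kcnd2* was 0.10. Pairs called numbered 1 with RLE and 0 to 1 on leaving out donors. The causes were not tested. Over all genes, called genes were 554 between regions (169 higher, 385 lower) against 2100 without the block (905 higher, 1195 lower), 1026 in DESeq2, and 193 and 251 within pre-KD or post-KD cohorts alone. The region-by-condition term called 3, against 348 without the block, 2 with filterByExpr or without *Gm42418*, and 0 in DESeq2 (948 unadjusted). In hippocampus 1 gene was called, 1291 without a count filter, and 0 in DESeq2 (569 unadjusted), with filterByExpr (221 unadjusted) and with the block (348 unadjusted). In frontal cortex 1 was called, 2 in DESeq2, 3 with the block and 12 with the block in DESeq2. The median log2 fold change of all genes between regions was -0.17, -0.016 in DESeq2 and -0.013 without the block. At 1140756 to 2095352 counts a library, *Kcnq5* had 0 to 130 counts and *Kcna4* 3 to 157, and the intervals of their changes post-KD were the widest of the 7 genes in hippocampus.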
